A study of Homo sapiens with 9 samples.

Results

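The IFIT family, the interferon-induced proteins with tetratricopeptide repeats, was followed across a knockdown of the histone demethylase LSD1 in OCI-Ly1, an established human cell line from a germinal-centre-type diffuse large B-cell lymphoma. The members were taken by gene symbol: IFIT1, IFIT2, IFIT3 and IFIT5, which are 4 of the 26816 genes in the count table, and all 4 were among the 15725 genes with enough reads to be tested. The study asked which transcripts change when LSD1, the product of KDM1A, is depleted. Polyadenylated RNA was sequenced from 9 libraries, 3 biological replicates in each of 3 groups. The first group carried the LSD1 shRNA named sh72 in the count table, the second carried the LSD1 shRNA named sh68, and the control group carried a non-targeting shRNA, shSCR. All 3 groups expressed their shRNA from the pLKO1 vector and were selected with puromycin, so that every library, shSCR included, came from transduced and selected cells of 1 line. The sample titles number the LSD1 shRNAs and the count table names them by the last digits of their clones. No label links the numbers to the names, and the names of the count table are used here. The labels do not say whether the replicates were separate transductions, so p-values measure the spread between these libraries.

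IFIT genes are among the most strongly induced targets of type I and type III interferon. Interferon binding to its receptor activates the kinases JAK1 and TYK2, which act on STAT proteins, and STAT2 and IRF9 take part in the complex ISGF3 that then forms. ISGF3 binds an interferon-stimulated response element in the promoters of its targets, and IRF3 can bind similar elements without interferon. The IFIT proteins are built from helical repeats that hold RNA or other proteins. IFIT1 binds RNA whose cap lacks 2′-O methylation and blocks its translation, IFIT3 binds IFIT1 and stabilises it in a shared complex, IFIT2 joins that complex and is linked to apoptosis, and IFIT5 binds RNA with a 5′ triphosphate and acts as a monomer.

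The 4 genes lie side by side on the + strand of chromosome 10 within 118.952 kb (RefSeq on GRCh38.p14). IFIT2 spans chr10:89302046-89309271, IFIT3 chr10:89327997-89340968, IFIT1 chr10:89392623-89406487 and IFIT5 chr10:89414568-89420997. Promoter sequence from RefSeq was matched for 3 of the members, IFIT1, IFIT3 and IFIT5, and is shown because the 3 genes fell by different amounts with sh68 and each carries the core of the interferon-stimulated response element. Each line runs 5′ to 3′ on GRCh38.p14 and starts 170 bases before the annotated start of the transcript. Capitals mark matches to the core of the response element, 2 copies of TTTC in a row with any 2 bases between them, searched on both strands.
IFIT3, chr10:89327827-89328016, + strand: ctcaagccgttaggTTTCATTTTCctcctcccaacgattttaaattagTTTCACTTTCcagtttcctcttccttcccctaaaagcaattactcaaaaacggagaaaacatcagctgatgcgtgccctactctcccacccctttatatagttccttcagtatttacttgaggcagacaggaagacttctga
IFIT1, chr10:89392453-89392642, + strand: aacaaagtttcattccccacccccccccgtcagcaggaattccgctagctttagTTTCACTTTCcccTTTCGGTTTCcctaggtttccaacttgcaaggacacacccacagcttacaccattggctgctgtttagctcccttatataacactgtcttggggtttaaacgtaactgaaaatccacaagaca
IFIT5, chr10:89414398-89414587, + strand: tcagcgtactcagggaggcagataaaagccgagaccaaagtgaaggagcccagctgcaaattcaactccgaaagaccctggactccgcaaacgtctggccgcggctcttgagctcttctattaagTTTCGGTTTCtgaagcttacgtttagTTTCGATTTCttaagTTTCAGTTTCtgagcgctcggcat
In the full windows of 250 bases before to 50 bases after the start, IFIT3 held 2 matches, IFIT1 held 2 and IFIT5 held 3. The IFIT3 matches began 156 and 122 bases before the start, those of IFIT1 116 and 103 bases before it, and those of IFIT5 45, 19 and 4 bases before it. A second annotated start of IFIT3 also held 2 matches, at 94 and 51 bases. The motif was present in 3.57% of all 35116 promoters of the same length, and 0.259% of them held 2 or more matches. Among 48 promoters of other interferon-stimulated genes it was present in 64.6%. A longer form, the same letters with AG directly before the first TTTC, occurred once in IFIT1, once at each IFIT3 start and 3 times in IFIT5, against 0.273% of all promoters with any match. A match describes letters in a window and was not tested as a bound site.

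KDM1A, the target, was far lower with both shRNAs. It averaged 20.9 CPM with sh72 and 24.4 CPM with sh68, against 121 CPM in shSCR. CPM are read counts scaled to a common library size, here after TMM (trimmed mean of M values) scaling. The log2 fold change was -2.54 ± 0.056 with sh72 and -2.31 ± 0.054 with sh68 (SE, adjusted p = 5.15e-20 and 2.76e-20). These and all later adjusted p values come from edgeR's quasi-likelihood test with Benjamini-Hochberg adjustment over all genes tested, and a gene is called changed where it is below 0.05. The libraries held 29506767 to 35270849 counted reads. B-cell markers were present in every library, and summed over 10 genes they reached 4159 to 4383 CPM with sh72, 5950 to 6109 CPM with sh68 and 5790 to 6000 CPM in shSCR.

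All 4 IFIT genes were lower with both LSD1 shRNAs. Among all genes tested, 26.3% were called lower with sh72 and 28.1% with sh68, so a call in itself is common in these data, and the sizes of the changes carry more information. Every one of the 6 LSD1 shRNA libraries lay below all 3 shSCR libraries for each of the 4 genes, which held for 15.3% of all genes tested. On the mean of both shRNAs 27.5% of genes were called lower, and the median log2 fold change of the members was -1.90, against -0.02 for all genes tested. In bulk RNA, fewer cells with a transcript and less of it per cell cannot be told apart.

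IFIT1, the member that recognises incompletely methylated caps, had the largest change of the 4 with sh68. With sh72 its change was close to that of IFIT3 and smaller than that of IFIT2. It had 13.0, 11.0 and 10.9 CPM with sh72, 1.08, 1.20 and 1.45 CPM with sh68, and 26.1, 23.3 and 22.4 CPM in shSCR. In reads these were 333 to 445 with sh72, 35 to 51 with sh68 and 672 to 845 in shSCR. The 3 groups did not overlap, and the sh68 libraries lay far below the sh72 libraries. The log2 fold change against shSCR was -1.04 ± 0.082 with sh72 (SE, adjusted p = 2.02e-10) and -4.26 ± 0.12 with sh68 (adjusted p = 5.26e-19). This left 48.5% of the shSCR level with sh72 and 5.18% with sh68. Ranked from the lowest log2 fold change of all 15725 genes, IFIT1 stood 4th with sh68 and 416th with sh72.

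IFIT3, the stabilising partner of IFIT1, followed the same order of groups. It had 9.24, 6.89 and 7.61 CPM with sh72, 1.54, 1.48 and 1.99 CPM with sh68, and 18.7, 16.6 and 16.6 CPM in shSCR. Again no library of one group reached into another. The log2 fold change was -1.13 ± 0.097 with sh72 (adjusted p = 9.88e-10) and -3.37 ± 0.12 with sh68 (adjusted p = 1.22e-16), which left 45.7% of the shSCR level with sh72 and 9.64% with sh68. IFIT3 ranked 10th from the lowest with sh68 and 335th with sh72.

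IFIT2, the member linked to apoptosis, differed in its pattern. It had 5.66, 5.37 and 4.56 CPM with sh72, 3.32, 4.27 and 4.15 CPM with sh68, and 14.2, 12.01 and 13.2 CPM in shSCR. Both LSD1 shRNA groups lay well below shSCR and close to each other, with the lowest sh72 library only slightly above the highest sh68 library. The log2 fold change was -1.34 ± 0.10 with sh72 (adjusted p = 1.48e-10) and -1.75 ± 0.11 with sh68 (adjusted p = 1.59e-12), which left 39.5% of the shSCR level with sh72 and 29.7% with sh68. With sh72, IFIT2 had the lowest log2 fold change of the 4 members and ranked 203rd of all genes, while with sh68 it ranked 64th.

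IFIT5, which binds triphosphate RNA, had the smallest change with each shRNA. It had 12.3, 10.7 and 11.3 CPM with sh72, 6.39, 6.55 and 7.01 CPM with sh68, and 17.5, 17.0 and 18.1 CPM in shSCR. The 3 groups were again apart, with sh72 between the other groups. The log2 fold change was -0.62 ± 0.074 with sh72 (adjusted p = 2.21e-07) and -1.40 ± 0.079 with sh68 (adjusted p = 3.83e-13), leaving 65.2% of the shSCR level with sh72 and 37.9% with sh68. IFIT5 ranked 117th from the lowest with sh68 and 1288th with sh72.

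**Figure D1:**
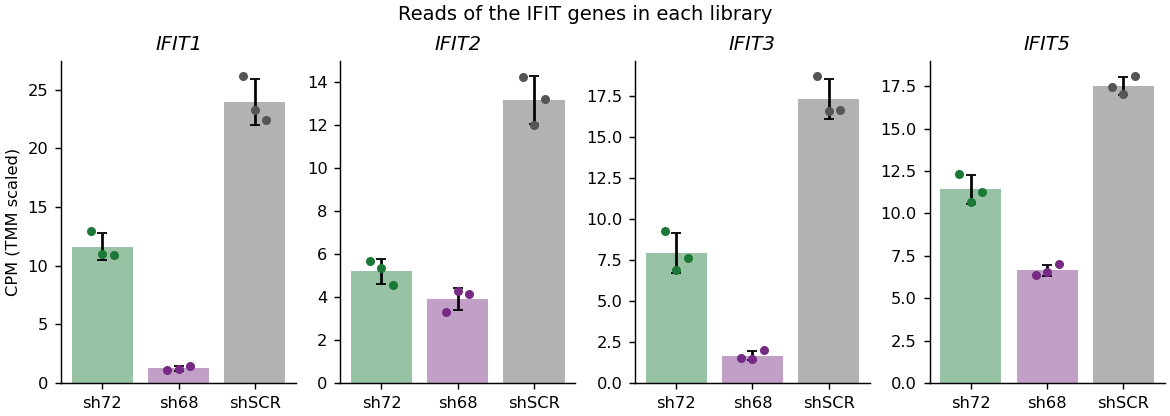
Reads of each IFIT gene as TMM-scaled CPM on a linear axis from 0, with 1 point per library, bars at the mean and error bars of 1 SD (n = 3) for sh72, sh68 and shSCR. IFIT1 and IFIT3 were near the floor of the plot with sh68, at 1.24 and 1.67 CPM on average, while IFIT2 was at 5.20 CPM with sh72 and 3.91 CPM with sh68.

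The spread between replicates was compared with these differences gene by gene. The SD was 1.17, 0.190 and 1.95 CPM for IFIT1 in sh72, sh68 and shSCR, around means of 11.6, 1.24 and 23.9 CPM. For IFIT5 it was 0.842, 0.324 and 0.524 CPM, around means of 11.4, 6.65 and 17.5 CPM. IFIT3 had SDs of 1.21 CPM with sh72, 0.278 CPM with sh68 and 1.19 CPM in shSCR, around means of 7.91, 1.67 and 17.3 CPM, and the highest relative spread of the 4 genes with each LSD1 shRNA. For IFIT2 the SDs were 0.569 CPM with sh72, 0.519 CPM with sh68 and 1.11 CPM in shSCR, around means of 5.20, 3.91 and 13.2 CPM. Its spread was small beside the distance of either LSD1 shRNA to shSCR. The distance between sh72 and sh68 was shorter, but the SD of each of these groups was still below it. Exact permutation tests of log2 CPM over the samples, two-sided, compared the 6 LSD1 shRNA libraries with the 3 shSCR libraries and gave p = 0.0119 for IFIT2, the smallest value that 6 against 3 allows, and p = 0.0238 for each of IFIT1, IFIT3 and IFIT5. Leaving out any 1 sh68 or shSCR library put the exact p of IFIT1 at 0.0714 to 0.143 and that of IFIT3 at 0.0536 to 0.0714. With 3 libraries against 3, the exact test cannot go below p = 0.1, which every member reached for each shRNA and for sh72 against sh68.

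The LSD1 shRNAs differed from each other for all 4 members, in a direct test of sh72 minus sh68. Every sh72 library was above every sh68 library for each member, as for 29.6% of all genes, and 27.2% of genes were called higher in this comparison. The difference was 3.22 ± 0.13 on the log2 scale for IFIT1 (adjusted p = 5.11e-16), which is 9.37-fold more RNA with sh72 than with sh68. It was 2.24 ± 0.14 for IFIT3 (adjusted p = 1.62e-12), or 4.74-fold. IFIT5 differed by 0.78 ± 0.083 (adjusted p = 2.33e-08), or 1.72-fold. IFIT2 differed least, by 0.41 ± 0.12 (95% interval 0.16 to 0.66, adjusted p = 0.00586), or 1.33-fold. KDM1A differed in the other direction and by little, at -0.23 ± 0.061 (adjusted p = 0.00261). The shRNA with slightly more KDM1A RNA left, sh68, had the lower IFIT levels. Whether the IFIT levels depend on how far LSD1 was depleted was not tested.

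**Figure D2:**
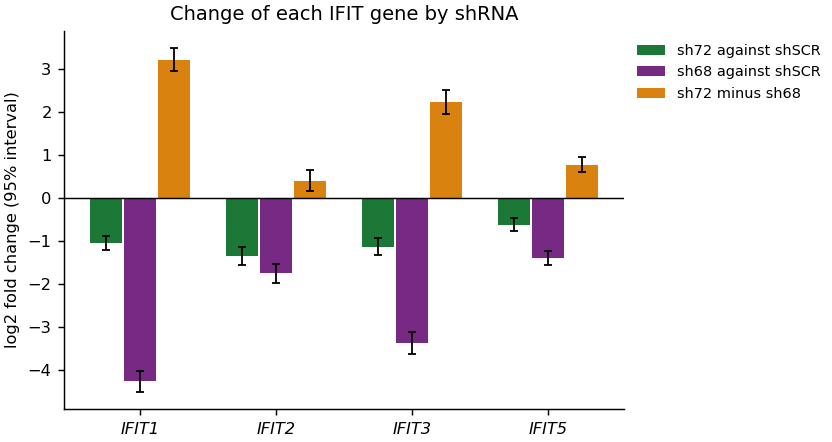
Log2 fold changes of the 4 IFIT genes for sh72 against shSCR, sh68 against shSCR, and sh72 minus sh68, with 95% intervals from the edgeR fit. The sh72 bars lie between -0.62 and -1.34, the sh68 bars between -1.40 and -4.26, and the difference between the shRNAs is 3.22 for IFIT1 and 0.41 for IFIT2.

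These unequal changes altered the make-up of the family. Summed over the 4 genes, the family reached 36.1 ± 3.52 CPM with sh72, 13.5 ± 1.14 CPM with sh68 and 71.9 ± 4.03 CPM in shSCR (SD, n = 3), so 50.3% of the shSCR sum was left with sh72 and 18.7% with sh68. IFIT1 made up 32.1 ± 0.290% of the family's reads with sh72, 9.17 ± 0.654% with sh68 and 33.3 ± 1.23% in shSCR. The share of IFIT1 with sh72 was thus close to that in shSCR, and with sh68 it was far lower. IFIT5 took 31.6 ± 1.05% with sh72, 49.5 ± 2.08% with sh68 and 24.4 ± 1.45% in shSCR. IFIT2 took 14.4 ± 1.31% with sh72, 28.99 ± 2.41% with sh68 and 18.3 ± 0.736% in shSCR. The share of IFIT3 was 21.8 ± 1.37% with sh72, 12.4 ± 1.33% with sh68 and 24.05 ± 0.382% in shSCR. The 95% Wilson intervals of single libraries, which cover counting error only, ran from 6.34% to 12.8% for IFIT1 over the sh68 libraries and from 29.1% to 35.2% over the sh72 libraries.

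**Figure D3:**
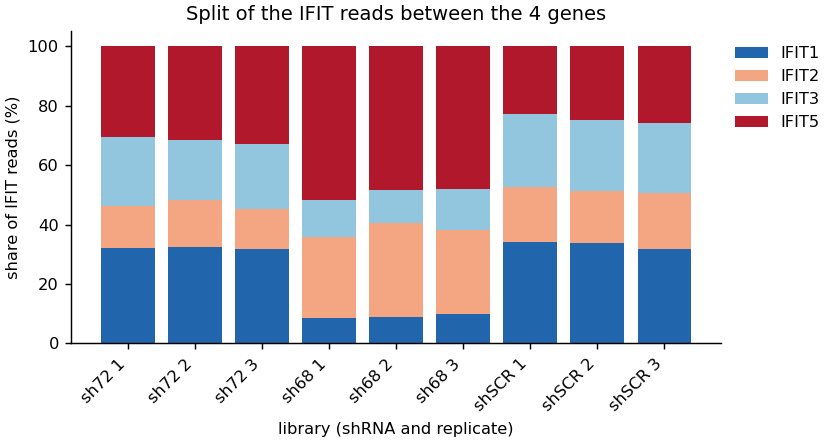
Share of the reads of the 4 IFIT genes taken by each gene, in percent, for the 3 libraries of sh72, sh68 and shSCR. IFIT5 takes 48.1% to 51.9% of the family's reads in the sh68 libraries, against 22.8% to 25.7% in the shSCR libraries.

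Ratios between members within a library, which do not depend on how libraries are scaled, gave the same picture. The log2 ratio of IFIT1 to IFIT2 was 1.15 ± 0.118 with sh72, -1.61 ± 0.157 with sh68 and 0.86 ± 0.0969 in shSCR (SD, n = 3). The sign of that ratio turned with sh68 alone of the 3 groups. The log2 ratio of IFIT1 to IFIT5 was 0.023 ± 0.0591 with sh72, -2.38 ± 0.139 with sh68 and 0.45 ± 0.135 in shSCR. Over the 6 pairs of members, the 6 LSD1 shRNA libraries differed from shSCR for the 3 pairs that hold IFIT5 (exact permutation test, two-sided, p = 0.0238 and 0.0476 adjusted over the 6 pairs for each), and those calls were lost when any 1 library was left out. The other 3 pairs gave an adjusted p of 0.464 in the exact test. For each of these the difference from shSCR had opposite signs with sh68 and sh72, and the pooled test averages them. For IFIT1 to IFIT2 it was -2.47 with sh68 and 0.29 with sh72. For sh72 against sh68, and for sh68 against shSCR, all 6 pairs reached 0.1, the smallest p of the exact test for 3 against 3. For sh72 against shSCR the ratio of IFIT1 to IFIT3 gave an exact p of 0.2 and that of IFIT2 to IFIT3 0.3, and the other 4 pairs gave 0.1.

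To compare levels between the genes, CPM were divided by the length of each gene's exons in GENCODE 29, which is 4613 bases for IFIT1, 4101 for IFIT2, 2640 for IFIT3 and 4015 for IFIT5. In sh72 cells IFIT3 had 2.997 ± 0.457, IFIT5 2.84 ± 0.210, IFIT1 2.52 ± 0.255 and IFIT2 1.27 ± 0.139 CPM per kb (SD, n = 3). The ranges of IFIT3 and IFIT5 overlapped there, as did those of IFIT5 and IFIT1, so of the neighbours in this order only IFIT1 and IFIT2 were apart. In sh68 cells the order was IFIT5 with 1.66 ± 0.0808, IFIT2 with 0.954 ± 0.127, IFIT3 with 0.632 ± 0.105 and IFIT1 with 0.269 ± 0.0413 CPM per kb, with no overlap between neighbours. In shSCR cells it was IFIT3 with 6.55 ± 0.451, IFIT1 with 5.19 ± 0.422, IFIT5 with 4.37 ± 0.131 and IFIT2 with 3.21 ± 0.270 CPM per kb, again with no overlap. IFIT1 thus stood second in control cells and last in sh68 cells. These levels rest on the length of all annotated exons together, and which isoforms the cells use was not measured.

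The relative IFIT1B, which lies between IFIT3 and IFIT1, had at most 1 read in any library and was not tested. The pseudogenes IFIT1P1 and IFIT6P were not analysed here. Of all runs of 50 bases in the transcripts of IFIT1, 0.824% also occur in IFIT1B, and 1.02% occur in any other gene. For IFIT2 the share is 8.42%, for IFIT3 5.22% and for IFIT5 0%. Exons of IFIT2 overlap 65 bases of LIPA on the opposite strand and 356 bases of the transcript AL353751.1 on the same strand. The strand setting of the counting is not given in the sources used here, so reads in these overlaps cannot be assigned with certainty.

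Most other interferon-stimulated genes were lower as well. Of 37 tested genes of this list, which was written with earlier results of these data known, 32 were lower, 3 higher and 2 not called with sh72, with a median log2 fold change of -0.65. With sh68, 35 were lower, 0 higher and 2 not called, with a median of -1.32, against medians of -0.01 for all genes tested with either shRNA. Among all genes tested, 24.7% were called higher with sh72 and 27.4% with sh68. On the mean of both shRNAs 34 of the 37 were lower, 1 higher and 2 not called, where 24.9% of all genes were called higher. The genes with the largest changes included IFI44L and IFI44, interferon-induced genes of uncertain biochemical function, the apoptosis-linked XAF1 and the helicase DDX60. IFI44L averaged 87.1 CPM with sh72, 3.36 CPM with sh68 and 177 CPM in shSCR, and its log2 fold change was -1.02 ± 0.061 with sh72 (adjusted p = 1.67e-12) and -5.71 ± 0.091 with sh68 (adjusted p = 1.51e-23). For IFI44 the log2 fold change was -1.06 with sh72 and -3.93 with sh68, for XAF1 -1.24 with sh72 and -3.39 with sh68, and for DDX60 -0.91 with sh72 and -3.59 with sh68. GBP1, a guanylate-binding protein, did not follow and was higher with sh72, at 0.81 ± 0.13 (adjusted p = 1.1e-05), and with sh68 it was at 0.19 ± 0.14 (adjusted p = 0.253).

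The direct comparison of sh72 minus sh68 was higher for 33 of these 37 genes, lower for 1, ISG20, and not called for 3, with a median of 0.87, where 27.2% of all genes were called higher and 29% lower. Placed among the 41 genes of the list and the family together, IFIT1 had the third highest difference, after IFI44L and OASL, and IFIT3 the seventh. IFIT5 stood at rank 26 and IFIT2 at rank 34. With sh72 alone, IFIT2 had the lowest log2 fold change of all 41 genes, and with sh68 it stood at rank 17 from the lowest. IFI6 at -1.25 ± 0.075 and XAF1 at -1.24 ± 0.054 came next with sh72 (SE). They were close to IFIT2 at -1.34 ± 0.10, so its first place is not resolved. GBP1, ISG20 and OASL lie outside the rule for naming and were chosen after their values were seen.

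**Figure D4:**
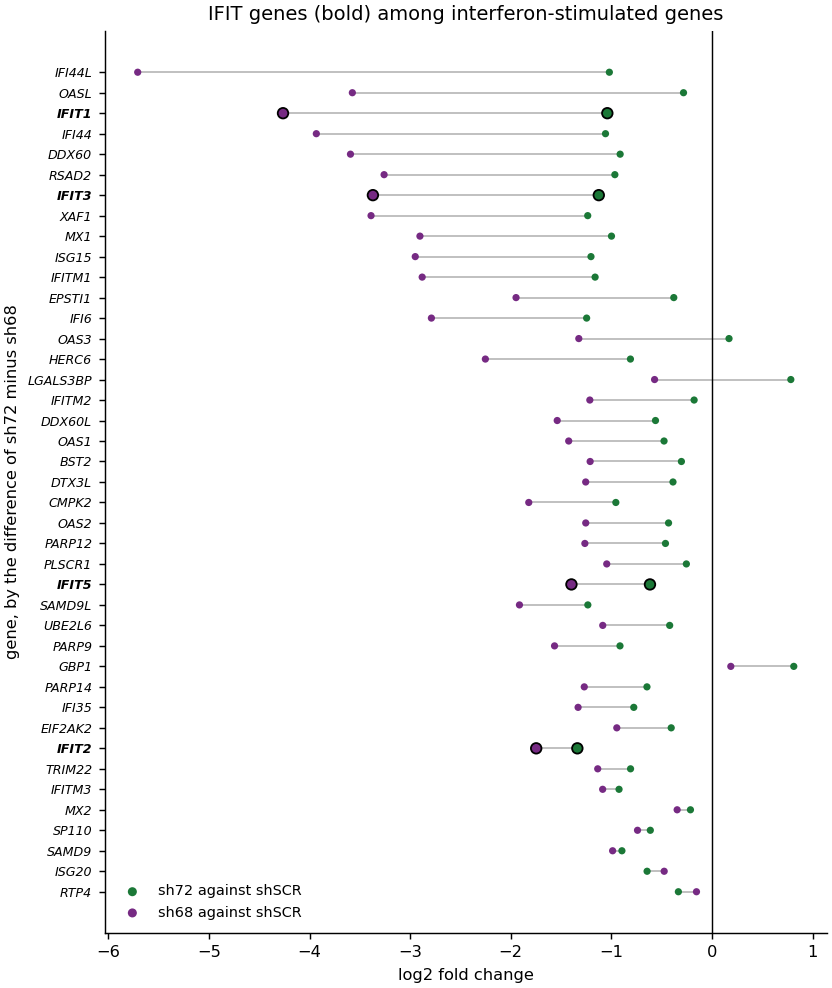
Log2 fold changes against shSCR with sh72 (green) and sh68 (purple) for 37 interferon-stimulated genes and the 4 IFIT genes (bold), ordered by the difference of sh72 minus sh68, with the highest at the top. Both shRNAs are compared with the same shSCR libraries. IFIT1 and IFIT3 stand near the top with wide gaps, and IFIT2 near the bottom with a gap of 0.41.

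Transcripts of the interferons themselves were close to the limit of detection. Of 22 interferon genes 11 had reads, none had more than 16 reads in a library, and IFNW1, the only one tested, was not called with either shRNA. IFNB1, the fibroblast interferon, had 12, 6 and 3 reads with sh72, 7, 6 and 10 reads with sh68, and 7, 4 and 10 reads in shSCR, so the groups overlapped. A difference in interferon transcripts was not detectable at this depth.

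The smaller lists of the pathway are read against the shares over all genes tested, of which 24.7% were called higher and 26.3% lower with sh72, and 27.4% higher and 28.1% lower with sh68. Counts in lists of this size that are near those shares say nothing particular about a list. Of 9 receptor and kinase genes, 1 was higher, 4 lower and 4 not called with sh72, and 5 were higher, 1 lower and 3 not called with sh68. IFNAR1, the first chain of the type I receptor, averaged 116 CPM with sh72, 117 CPM with sh68 and 115 CPM in shSCR and was not called with either shRNA. IFNAR2, the second chain, was lower with sh72 at -0.21 ± 0.041 (adjusted p = 0.000169) and higher with sh68 at 0.42 ± 0.040 (adjusted p = 4.66e-09). IFNLR1, the specific chain of the type III receptor, was higher with each, at 0.19 with sh72 and 0.60 with sh68. JAK2, which serves the type II receptor, was called higher with sh68, at 0.49, and its value with sh72 was 0.05, without a call. IL10RB, the shared chain of the type III receptor, was called higher with sh68, at 0.30, and was at 0.05 with sh72, without a call. IFNGR2, a chain of the type II receptor, was lower with sh72 at -0.71, and with sh68 its value of -0.19 did not pass.

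Of 11 STAT and IRF factors, 9 were lower, 1 higher and 1 not called with sh72, and 7 were lower, 2 higher and 2 not called with sh68. IRF9, the DNA-binding subunit of ISGF3, averaged 50.5 CPM with sh72, 30.2 CPM with sh68 and 81.8 CPM in shSCR, with log2 fold changes of -0.69 ± 0.048 with sh72 (adjusted p = 2.54e-11) and -1.43 ± 0.050 with sh68 (adjusted p = 4.31e-17). STAT2, a further subunit, was at -0.21 with sh72 and -0.61 with sh68. IRF7, a factor for interferon genes that is itself interferon-induced, was at -0.96 with sh72 and -2.30 with sh68. IRF4, a lymphoid factor, was higher with sh68 at 1.83 ± 0.35 (adjusted p = 8.75e-05) from a low level, averaging 0.360 CPM with sh72, 1.09 CPM with sh68 and 0.301 CPM in shSCR. The part of these factors in the IFIT changes was not tested.

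Of 8 tested genes that restrain interferon signalling, 5 were lower, 0 higher and 3 not called with sh72, and 3 were lower, 2 higher and 3 not called with sh68. USP18, a protease that removes ISG15 and blocks the receptor, and itself an interferon target, was at -1.23 ± 0.11 with sh72 (adjusted p = 3.21e-09) and -3.44 ± 0.15 with sh68 (adjusted p = 1.62e-15). PTPN6, the phosphatase SHP-1, fell with both, by 1.83 with sh72 and by 1.63 with sh68 on the log2 scale. SOCS1, an inhibitor of JAK kinases, was lower with sh72 at -0.58 and had a value of -0.06 with sh68 that did not pass. PTPN2, a phosphatase of JAK kinases, was lower with sh72 at -0.34, and its value with sh68 was -0.07, without a call.

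Among 12 tested sensors and adaptors of nucleic acid sensing, 5 were lower, 3 higher and 4 not called with sh72, and 7 were lower, 2 higher and 3 not called with sh68. DDX58, which encodes the RNA sensor RIG-I, was at -0.53 with sh72 and -1.36 with sh68, and DHX58, its relative LGP2, at -0.84 with sh72 and -2.17 with sh68. MB21D1, which encodes the DNA sensor cGAS, was higher with both, at 0.86 with sh72 and 0.92 with sh68. TLR7, an endosomal RNA receptor, was lower with sh72 at -1.96 ± 0.15 (adjusted p = 1.36e-10) and had a value of -0.19 with sh68 (adjusted p = 0.18).

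Genes for the RNA features that IFIT proteins read had small changes. Of 8 tested genes of cap formation, 3 were lower, 3 higher and 2 not called with sh72, and 4 were lower, 0 higher and 4 not called with sh68. CMTR1, the 2′-O methyltransferase of the first cap nucleotide and itself interferon-induced, was at -0.25 with sh72 and -0.47 with sh68. PCIF1, which methylates adenosine next to the cap, was at -0.28 with sh72 and -0.21 with sh68. RNMT, the cap guanine methyltransferase, was lower with sh68 at -0.12, and with sh72 its value of -0.07 did not pass. Of 12 reported binding partners of IFIT proteins, 1 was lower, 4 higher and 7 not called with sh72, and 5 were lower, 0 higher and 7 not called with sh68. EIF3E, a subunit of the initiation factor eIF3, was at -0.31 with sh72 and had a value of 0.04 with sh68 that was not called. EIF4E, the cap-binding factor, was higher with sh72 at 0.29, and with sh68 its value of -0.01 did not pass. LARP4 and SYNCRIP, RNA-binding proteins, were lower with sh68 at -0.40 and -0.17, and their values of -0.08 and -0.02 with sh72 were not called.

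Of 7 genes of the LSD1 complex, 3 were lower, 2 higher and 2 not called with sh72, and 4 were lower, 3 higher and 0 not called with sh68, KDM1A among the lower. RCOR1, which encodes CoREST, was higher at 0.39 with sh72 and 0.22 with sh68. GSE1, a component of CoREST-type complexes, was at -0.20 with each. HMG20B, a further subunit, was lower with sh68 at -0.45, and its value of -0.08 with sh72 did not pass.

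Markers of cell identity also differed between the groups. Of 10 B-cell markers, 9 were lower and 1 higher with sh72, and 2 were lower, 5 higher and 3 not called with sh68. Among all genes tested, 26.3% were called lower and 24.7% higher with sh72, and 28.1% lower and 27.4% higher with sh68. The counts with sh68 are too small to set against those shares. The marker that was higher with sh72 is not among those named next. CD79A was at -1.17, CD79B at -0.93 and PAX5 at -1.04 with sh72. With sh68 CD79B was lower at -0.13, PAX5 was higher at 0.13, and CD79A had a value of -0.12 without a call. Of 11 T-cell and natural killer cell markers 10 were in the table and 4 were tested, and their sum was 6.82 to 7.06 CPM with sh72, 11.0 to 12.4 CPM with sh68 and 4.62 to 5.40 CPM in shSCR. Most of that sum was PRF1, perforin, at 5.29 CPM with sh72, 10.5 CPM with sh68 and 3.96 CPM in shSCR. The T-cell receptor chain genes CD3D, CD3E and CD3G were each below 1 CPM on average in every group. The list for monocytes, macrophages and dendritic cells, 5 of 10 in the table, summed to 0.295 to 0.379 CPM with sh72, 0.937 to 1.35 CPM with sh68 and 0.278 to 0.351 CPM in shSCR. LYZ, lysozyme, made up most of it with sh68, at 0.790 CPM, and had 0 reads in shSCR. CLEC4C, a marker of plasmacytoid dendritic cells, had fewer than 10 reads over all 9 libraries, with 0 reads in sh72 and shSCR. Fibroblast and epithelial markers, 8 of 9 in the table, summed to 17.1 to 18.9 CPM with sh72, 8.90 to 10.4 CPM with sh68 and 15.7 to 18.6 CPM in shSCR, mostly EPCAM, the epithelial adhesion molecule. The part of these markers in the IFIT changes was not tested.

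No tested gene beside the cluster had a called change as large as those of the IFIT genes. RefSeq lists 34 other genes within 500 kb of it, of which 16 were in the table and 8 were tested. With sh72 0 of the 8 were lower and 2 higher, and with sh68 2 were lower and 2 higher. Among all genes tested, 26.3% were called lower and 24.7% higher with sh72, and 28.1% lower and 27.4% higher with sh68. Counts out of 8 beside such shares say nothing particular about the neighbours. LIPA, lysosomal acid lipase, is the nearest of the 8 tested, and its RefSeq span runs over IFIT2, IFIT3 and IFIT1 on the opposite strand and ends within IFIT5. It averaged 42.9 CPM with sh72, 47.4 CPM with sh68 and 44.7 CPM in shSCR and was not called with either shRNA, at -0.06 with sh72 and 0.09 with sh68. The death receptor gene FAS was lower with sh68 at -0.33, and so was the kinesin gene KIF20B at -0.16. PANK1, a pantothenate kinase, was higher at 0.37 with sh72 and 0.33 with sh68, STAMBPL1, a deubiquitinase, was higher with sh72 at 0.34, and the noncoding LINC00865 was higher with sh68 at 0.88. ACTA2 and FLJ37201 were not called with either shRNA. ACTA2-AS1, FAS-AS1, CH25H, LOC105378419, IFIT1B, SLC16A12, MIR107 and LINC01375 had too few reads to be tested, and the rest of the 34 were not analysed here. CH25H, an interferon-induced cholesterol hydroxylase, had 1 read over all 9 libraries.

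**Figure D5:**
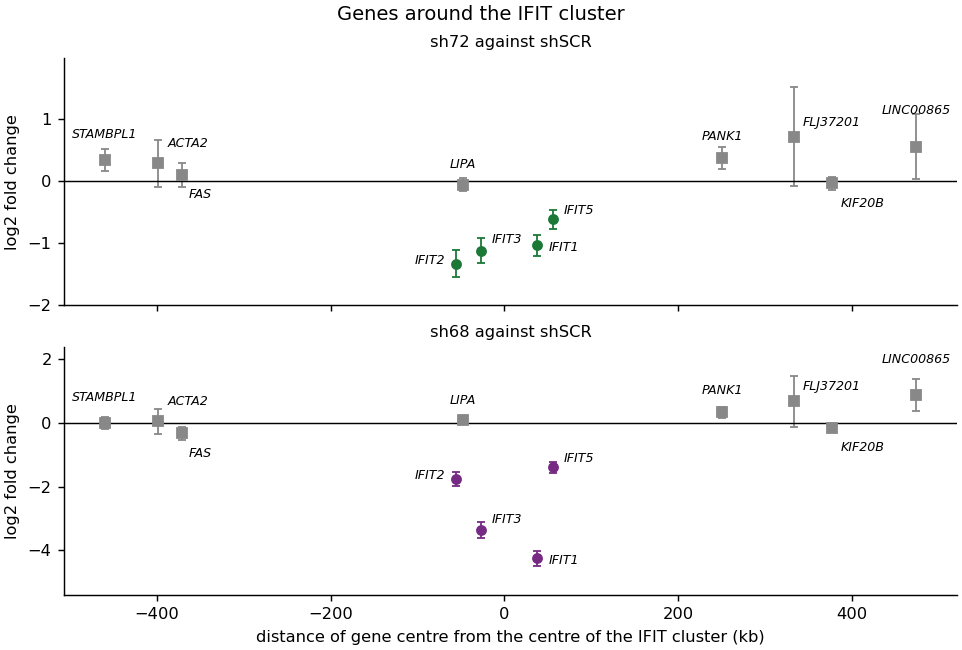
Log2 fold change of the 4 IFIT genes (circles) and of the 8 tested neighbours (squares) against the distance of each gene's centre from the centre of the cluster in kb, for sh72 (upper) and sh68 (lower), with 95% intervals. The vertical scales of the panels differ. The IFIT genes lie between -0.62 and -1.34 with sh72 and between -1.40 and -4.26 with sh68, below every neighbour in each panel.

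The genes most like each member over the 9 libraries were found by Pearson's r of log2 CPM among 11566 genes with an average log2 CPM of at least 1. The 9 points share their libraries and fall into 3 groups, so r describes mainly the pattern of the group means and is given with no p. IFIT1 was most like DDX60 (r = 1.000), IFI44 (0.999), EPSTI1 (0.998), LYSMD2 (0.997) and RSAD2 (0.996). IFIT3 was most like DTX3L (0.999), ADAR (0.998), PARP12 (0.998), USP18 (0.998) and MX1 (0.997). IFIT5 was most like EIF2AK2 (0.996), DHX58 (0.995), IFI6 (0.995), DDX58 (0.994) and TRAF4 (0.994). Of these genes DDX60, IFI44, EPSTI1, RSAD2, DTX3L, PARP12, MX1, EIF2AK2 and IFI6 were on the list of other interferon-stimulated genes. The 5 genes most like IFIT2 were FAM206A (0.998), SNUPN (0.995), NAXD (0.993), VRK3 (0.992) and NIP7 (0.990). Their own log2 fold changes on the mean of both shRNAs were small, from -0.55 for FAM206A to -0.20 for SNUPN. None of these 5 was on that list, which holds 37 of the 15725 genes tested, so their absence from it says little about IFIT2. Between members r ran from 0.829 for IFIT1 and IFIT2 to 0.994 for IFIT1 and IFIT3.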

How the data were processed

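The authors deposited 1 table of raw read counts, which are whole numbers for each gene and library and carry no scaling. Per the submitters' processing notes the tools were CASAVA 1.8.2, STAR 2.5.2 and featureCounts 1.5.2 with the hg38 genome. How these tools were set, which annotation was counted and whether strand was used is not given in the sources here. All 9 columns were used, with 29506767 to 35270849 reads each. The members and gene lists were chosen with earlier results of these data known.

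Of 26816 genes, filterByExpr kept 15725. All 9 libraries entered 1 quasi-likelihood fit in edgeR 4.0.16 (R 4.3.3) with the 3 groups as its terms, TMM scaling and a common biological coefficient of variation of 0.0394. Benjamini-Hochberg adjustment covered every gene tested. The fit was tested on simulated data. Exact permutation tests used log2 CPM with a prior count of 2. Group means and shares used CPM and reads as they stand. Lists are described by counts and medians, with no test. Named genes were the members, up to 4 called genes of each list with the largest change on the mean of both shRNAs, a fixed set of pathway genes, genes within 500 kb, and the 5 genes most like each member. Each library was counted as 1 sample. Replicates of a group differed beyond counting noise, which does not show whether they were separate transductions. Positions and promoters are from RefSeq on GRCh38.p14, and exon lengths, overlaps and shared runs of 50 bases from GENCODE 29. Alternatives were other scalings (RLE, library size), other filters, DESeq2 1.42.0, limma-voom with limma 3.58.1, fits of the compared groups alone, the replicate number as a block, the 6 LSD1 shRNA libraries as 1 group, a minimum of 1.5-fold, another prior count of 0.5 and each library left out. A few genes that the naming rule took are not reported here.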

Additional observations from a re-analysis of the deposited data

Results flagged for a closer look

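The effects of the LSD1 shRNAs differed between sh72 and sh68 for each of the 4 members, by the direct test of the difference in the edgeR fit. The difference of sh72 minus sh68 on the log2 scale was 3.22 for IFIT1, 2.24 for IFIT3, 0.78 for IFIT5 and 0.41 for IFIT2, and all 3 sh72 libraries were above all 3 sh68 libraries for each gene. KDM1A itself was at 20.9 CPM with sh72 and 24.4 CPM with sh68.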

How the results depend on the processing

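Of 288 results for the members from fits across all genes under alternative settings, 285 kept their direction and their side of the threshold. In the exact tests of members and of their ratios, 39 results kept their direction but no longer passed, all with 1 library left out. With the 6 LSD1 shRNA libraries as 1 group, the mean log2 fold change of IFIT1 was -1.90 with an adjusted p of 0.0895, and 1857 genes were called higher and 1724 lower, against 3908 and 4318. The spread of that group includes the difference between the shRNAs. With a minimum of 1.5-fold, IFIT5 with sh72 (-0.62, adjusted p = 0.968) and IFIT2 for sh72 minus sh68 (0.41, adjusted p = 1) lost their calls, as the requirement is stricter. Genes called higher and lower were then 629 and 269 for the mean, 580 and 505 for sh72, 1142 and 335 for sh68, and 359 and 1036 for sh72 minus sh68. Leaving out 1 library at a time put the difference in log2 CPM of IFIT1 between -2.98 and -2.27 and that of IFIT3 between -2.50 and -1.98, with exact p values up to 0.143 and 0.0714. The members kept their calls in the edgeR fit without any 1 library, and with RLE scaling, library size alone, either other filter, DESeq2 and limma-voom.

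Libraries with the same replicate number had no clear shared effect: their residuals had r from -0.036 to 0.072. The labels do not say whether such libraries were prepared together, and these values cannot tell. With the replicate block the mean log2 fold change of IFIT1 was -2.65, and the difference of sh72 minus sh68 for IFIT2 was 0.41 (edgeR adjusted p = 0.00492). The block changed no call of a member. The IFIT1 level with sh68 rests on 35 to 51 reads per library.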
